A study of Gallus gallus and Columba livia with 18 samples.

Results

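The chicken mitochondrial genome transcripts were taken as every row of the chicken FPKM table whose locus stands on MT, which gave 30 of the table's 24708 rows. The series followed retinal development by mRNA sequencing in chicken and pigeon embryos, and the chicken values used here come from 9 of its 18 libraries. Retinas of chicken embryos (Gallus gallus) from eggs incubated at 37 °C were taken at 3 stages, E3 (embryonic days 3 to 3.5), E5 (days 5 to 5.5) and E8 (days 8 to 8.5), with 3 libraries per stage and 1 to 6 whole retinas per library. The labels give no strain, genotype or treatment, and the pigeon libraries were not analysed here. Each stage has 1 pooled value per row, in FPKM (sequenced fragments corrected for transcript length and for the size of the library), so no difference below has a replicate check, a test, an SD or a p-value. Changes are differences of log2(FPKM + 1), and a row was compared when it reached an FPKM of 1 at some stage and neither compared stage was listed at 0.

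Mitochondrial DNA is a small circle kept in many copies per cell. It is transcribed from both strands into long precursors, from which tRNAs are cut out so that the mRNAs and rRNAs between them are released. Its protein genes encode core subunits of respiratory complexes I, III and IV and of the ATP synthase, complex V, and its rRNA and tRNA genes serve the mitochondrial ribosome. All other subunits, and the enzymes that copy and read this DNA, are encoded in the nucleus. The neural retina of birds has no blood vessels of its own, and adult photoreceptors are known for dense mitochondria.

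The rows do not correspond 1 to 1 to genes. RefSeq's annotation of the chicken mitochondrial genome (assembly GRCg7b, used here for names, lengths and gene neighbours) has 37 genes, of which 13 encode proteins, 2 are rRNAs and 22 are tRNAs. The chicken rows name 12 of the protein genes, in 9 rows, because ATP6, ATP8 and CO3 share 1 row (MT-ATP6, MT-ATP8 and MT-CO3, positions 9085 to 10775 of MT) and ND4L and ND4 share another (11196 to 12932). COX2, the second subunit of cytochrome c oxidase, has no row of its name. A row labelled gga-mir-3527 (8331 to 9014) spans 684 bases, the length of RefSeq's COX2, and lies between the rows of COX1 and ATP8 as COX2 does in RefSeq. It was counted with the protein rows and complex IV, and no value is given for the microRNA whose name it bears. The sources used here do not give the genome build of the positions.

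The unnamed rows carry Ensembl identifiers that the reference table does not pair with names, so their class was read from their length alone. Rows of 976 bases (1297 to 2272) and 1621 bases (2346 to 3966) have the lengths of RefSeq's rRNA genes, 976 and 1622 bases, within 2 bases. Another 17 rows span 65 to 139 bases, where RefSeq's tRNA genes span 65 to 76, and are here called tRNA-length rows. The longest of them cover a pair of neighbouring short genes. The last unnamed row has exactly the span of COX1 (6645 to 8258, 1614 bases), so its class could not be read from its length. The table's locus numbers run along MT and then start again at position 5102. The last unnamed row stands in this later run, whose other rows are ND6 and tRNA-length rows. In RefSeq a tRNA gene of 75 bases follows COX1, so the row may stand for that gene, but the table does not name it. It is kept apart below as the COX1-span row.

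Row spans also set limits on what a value means. The ND2 row is 76 bases longer than RefSeq's ND2, the row of ATP6, ATP8 and CO3 is 69 bases longer than these genes together, and the row of ND4L and ND4 is 69 bases longer, and in RefSeq these are followed by tRNA genes of 76, 68 and 69 bases. The span shared by COX1 and the COX1-span row is 63 bases longer than RefSeq's COX1, which is followed by a tRNA gene of 75 bases. Rows that share a span, at 5102 to 5240 and at 6645 to 8258, have different values and stand in different runs of locus numbers. The kit preserves strand, but the table states no strand. The sources used here do not say whether the counting used it, so how reads of overlapping genes were divided is unknown. Nor do they say how several genes were combined into the FPKM of 1 row.

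Mitochondrial transcripts were among the most abundant in the chicken retina at all 3 stages, and their summed level was lower at each later stage. They summed to 93484 FPKM at E3, 81255 at E5 and 72472 at E8, against 642172, 621052 and 604112 FPKM over all other rows. Their share of the summed FPKM was 12.7% at E3, 11.6% at E5 and 10.7% at E8. At E8 the mitochondrial sum was 22.5% below that of E3, and the sum of the other rows was 5.93% below. Of the 10 highest rows in the whole table, 6 were mitochondrial at E3 and 5 at both E5 and E8. In bulk tissue, fewer cells with many mitochondria and less mitochondrial RNA per cell cannot be told apart.

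Protein rows held most of the mitochondrial FPKM. They made up 78.7% of it at E3, 77.2% at E5 and 75.7% at E8. The COX1-span row alone held 16.3%, 17.0% and 18.6% over the same stages. The rRNA-length rows held 3.11%, 3.05% and 3.41%, and the tRNA-length rows 1.85%, 2.73% and 2.36%. The class of the COX1-span row therefore decides the share of small RNAs, which is 18.2%, 19.7% and 20.9% when it is counted with the tRNA-length rows. Libraries were made with a kit that selects polyadenylated RNA, and mitochondrial tRNAs carry no poly(A) tail, so these shares do not describe the RNA in the cells. Since FPKM is corrected for length before summing, they are not shares of the sequenced fragments either.

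**Figure D1:**
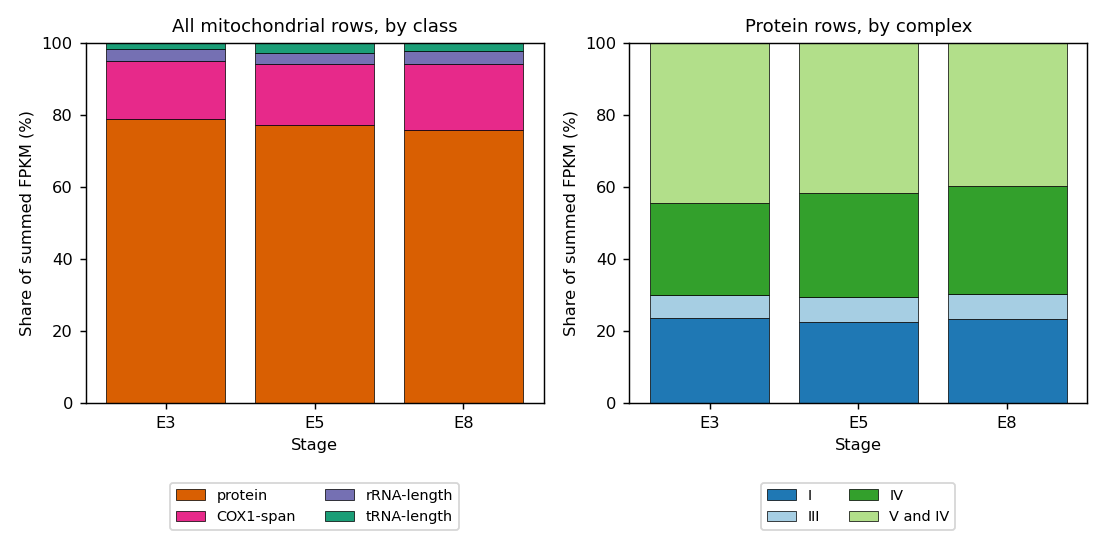
Stacked bars of the share of summed FPKM (%) at E3, E5 and E8, for all 30 mitochondrial rows by class (left) and for the 10 protein rows by complex (right); each bar rests on the authors' 1 pooled value per stage. Protein rows take 78.7%, 77.2% and 75.7% of the mitochondrial sum, and within them the mixed row of complexes V and IV goes through 44.6%, 41.7% and 39.8%.

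Grouped by respiratory complex, the 6 complex I rows summed to 17416 FPKM at E3, 14167 at E5 and 12853 at E8, or 23.7%, 22.6% and 23.4% of the protein sum. The single complex III row, CYB, held 6.25%, 6.78% and 6.98%. COX1 and the gga-mir-3527 row, taken as complex IV, held 25.5%, 29.0% and 29.8%. The row that mixes ATP6 and ATP8 of complex V with CO3 of complex IV held 44.6%, 41.7% and 39.8%, and it cannot be divided between its complexes. If its FPKM is divided by its 3 names and that of ND4L and ND4 by 2, the mixed row holds 22.6%, 20.5% and 19.5% and complex IV without CO3 holds 38.9%, 42.9% and 43.9%.

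The mixed row of ATP6, ATP8 and CO3 was the highest row of the whole chicken table at every stage. ATP6 and ATP8 are membrane subunits of the ATP synthase, and CO3 is the third core subunit of cytochrome c oxidase. The row stood at 32794 FPKM at E3, 26150.2 at E5 and 21819 at E8. Its level was 33.5% lower at E8 than at E3, a log2 change of −0.59. This one row accounts for 52.2% of the 21012 FPKM by which the mitochondrial sum was lower at E8.

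In complex IV, which passes electrons to oxygen, the rows together stood 12.9% lower at E8 than at E3, beside 26.2% for the complex I rows. This leaves out CO3, which cannot be separated from its mixed row, and with that row included the figure is 26.0%. COX1, the catalytic subunit (positions 6645 to 8258), was the third highest row of the table at each stage, with 9970.2 FPKM at E3, 9258 at E5 and 8896 at E8. Its E8 level was 10.8% below its E3 level (−0.16). The gga-mir-3527 row had 8800.3, 8926 and 7447 FPKM over the stages, so it stood slightly higher at E5 than at E3 (0.02) and lower at E8 than at E5 (−0.26). The COX1-span row ran beside COX1, at 15265, 13799 and 13446 FPKM. Its ratio to COX1 was 1.53, 1.49 and 1.51, nearly the same at each stage.

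CYB encodes cytochrome b, the one mitochondrially encoded subunit of complex III (14893 to 16035). It had 4601 FPKM at E3, 4256 at E5 and 3826 at E8, and its E8 level was 16.9% below that of E3 (−0.27).

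The 6 rows of complex I, the entry point for electrons from NADH, differed among themselves. The other groups hold 1 or 2 rows each, so their spread cannot be ranked beside it. ND1, a core membrane subunit (4050 to 5024), had 4719 FPKM at E3, 3529 at E5 and 2534 at E8. Its log2 change was −0.42 at E5 against E3, −0.48 at E8 against E5 and −0.90 at E8 against E3, the lowest of the 10 protein rows. ND5, a proton-pumping subunit (13071 to 14888), had 1906 FPKM at E3, 1474 at E5 and 1081 at E8, and its change at E8 against E3 was −0.82.

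ND2, another membrane subunit (5241 to 6355), had 1957 FPKM at E3, 1552 at E5 and 1372 at E8 (−0.51 at E8 against E3). The row of ND4L and ND4 went the other way after E5, with 6856 FPKM at E3, 5807 at E5 and 6159 at E8, and a change of 0.08 at E8 against E5. It is the only protein row that was higher at E8 than at E5 as deposited. Scaled to the total of the other rows, ND6 also stood above 0 (0.0208), where the median of all genes was 0.0368. ND4L and ND4 are both membrane subunits of the pump.

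ND3 (10776 to 11126) was the lowest protein row at every stage, with 808, 767 and 684 FPKM. ND6 (16184 to 16705) is known in vertebrates as the one protein gene read from the opposite strand to the others. Its row had 1169 FPKM at E3, 1037 at E5 and 1023 at E8, and its change at E8 against E3 was −0.19. ND1 and ND5 thus stood 46.3% and 43.3% lower at E8 than at E3, and ND3, ND6 and the row of ND4L and ND4 between 10.2% and 15.3% lower.

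The order of the protein rows by level hardly differed between stages. From the highest, it ran through the mixed row, COX1, the gga-mir-3527 row and the row of ND4L and ND4 at all 3 stages, and ended with ND2, ND5, ND6 and ND3 at all 3. Between these groups, ND1 stood above CYB at E3, and CYB above ND1 at E5 and E8. The ratio of ND1 to CYB was 1.03, 0.829 and 0.662 over the stages. The highest protein row stood 40.6-fold above the lowest at E3, 34.1-fold at E5 and 31.9-fold at E8. Without values per library, neighbours in this order cannot be set against a spread, and the closest pairs at E3 were ND1 with CYB and ND2 with ND5. Rows of several names enter this order and these ratios undivided. Divided by its names, the mixed row had 10931 FPKM at E3, still the highest of the protein rows but below the COX1-span row (15265). It had 8717 at E5 and 7273 at E8, below COX1 and the gga-mir-3527 row. The row of ND4L and ND4 divided in this way had 3428 FPKM at E3 and 2904 at E5, below ND1 and CYB.

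**Figure D2:**
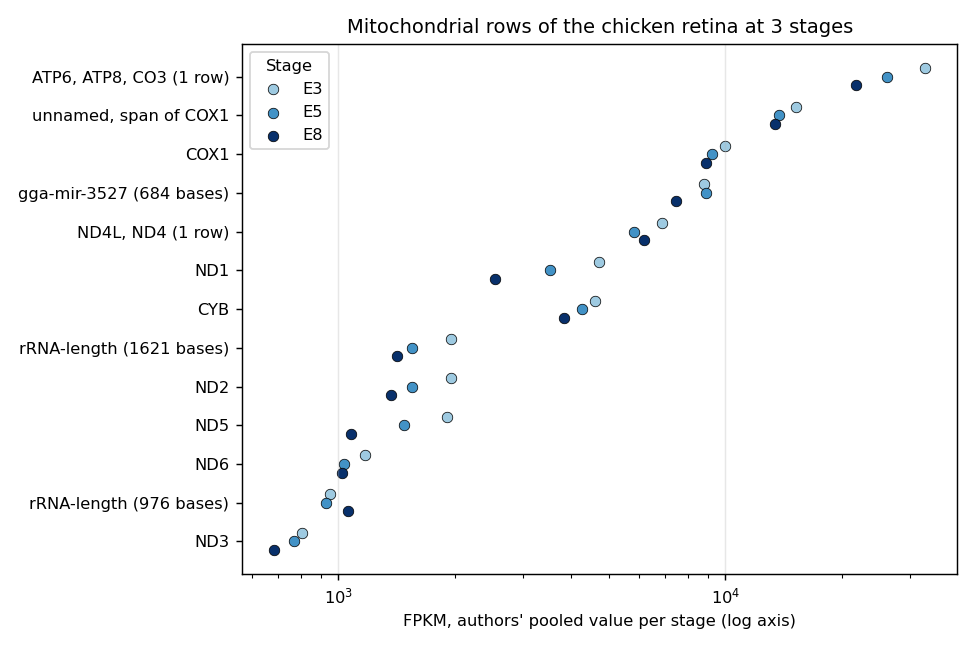
FPKM (log axis) of the 10 protein rows, 2 rRNA-length rows and the COX1-span row, with 1 point for the authors' pooled value at E3, E5 and E8. The mixed row of ATP6, ATP8 and CO3 lies at 32794, 26150.2 and 21819 FPKM, and the E8 point is left of the E3 point for each row shown except the 976-base rRNA-length row.

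The rRNA-length rows went opposite ways between E5 and E8, although the longer one was at 0.0061 and no longer below 0 with quantile normalisation. The 976-base row had 949.8 FPKM at E3, 929 at E5 and 1059 at E8, and was the only row of protein or rRNA length that was higher at E8 than at E3 (0.16). The 1621-base row had 1960.03, 1548 and 1415 FPKM, with a change of −0.47 at E8 against E3. The ratio of the longer to the shorter row was 2.06 at E3, 1.66 at E5 and 1.34 at E8. Mitochondrial rRNAs form the core of the mitochondrial ribosome, and the kit selects against RNA without a poly(A) stretch.

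Values of the 17 tRNA-length rows were sparse. At E3 9 of them were above 0, and 7 at both E5 and E8, while 7 were listed at 0 at all stages. The lowest value above 0 was 63.3 FPKM at E3, 53.9 at E5 and 48.3 at E8. How many fragments stand behind such a value is unknown. A value of 0 can also be a failed estimate, since nuclear genes of general use such as ATP5B, the catalytic beta subunit of the ATP synthase, are listed at 0 at all stages.

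The highest tRNA-length row (6362 to 6430) had 560.5 FPKM at E3, 1031 at E5 and 938 at E8. The next at E5 (5102 to 5240) had 248, 474 and 423 FPKM, and shares its span with a row of 91.9 FPKM at E3, 95.2 at E5 and 0 at E8. Both of the higher rows stood above their E3 level at E8, by 0.74 and 0.76, while the protein rows stood below theirs. A row at 3967 to 4040, just before ND1, had 282, 219.6 and 71.2 FPKM. A row at 6508 to 6643 that joins a pair of identifiers had 115 FPKM at E3, 269 at E5 and 111 at E8.

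Over all 30 rows, 20 could be compared at E5 against E3 and 19 in each of the other comparisons. At E5 against E3, 1 row was higher and 1 lower by at least 1 log2 unit, where 1.97% of 14490 genes were higher and 1.00% lower by this size. At E8 against E5, 2 of 19 were lower and none higher (4.46% of 14540 genes lower and 4.53% higher). At E8 against E3, 2 of 19 were lower and none higher (5.29% of 14451 genes lower and 6.65% higher). All rows past 1 were tRNA-length rows. They were the row at 8261 to 8329 (−1.22) and the row at 6508 to 6643 (1.21) at E5 against E3, the row at 6508 to 6643 again (−1.27) and the row at 3967 to 4040 (−1.61) at E8 against E5, and the rows at 3967 to 4040 (−1.97) and 8261 to 8329 (−1.38) at E8 against E3. No protein or rRNA-length row reached 1 in any comparison.

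At the smaller size of 0.5, 4 protein rows were lower at E8 than at E3, ND1, ND5, the mixed row and ND2, and none was higher. Over all genes 15.1% were lower by this size and 16.8% higher. In direction alone, 9 of 10 protein rows were lower at E5 than at E3 (50.6% of all genes), 9 of 10 at E8 than at E5 (50.1%) and 10 of 10 at E8 than at E3 (51.3%). Their median changes were −0.21, −0.17 and −0.25, beside medians over all genes of −0.0034, −0.0011 and −0.01. With quantile normalisation the medians of the protein rows were −0.0543, −0.0474 and −0.12, and with scaling to the total of the other rows the median at E8 against E3 was −0.17. The median of all genes at E8 against E3 was −0.0185 with quantile normalisation and 0.069 with scaling to the total of the other rows. At E8 against E3 all 10 protein rows stayed below 0 with median-ratio scaling and with scaling to the total of the other rows. With quantile normalisation 7 were below 0 and none above. Protein rows that stand next to each other on 1 precursor, or that share reads, are not independent of each other.

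Other highly expressed genes had a median nearer to 0. Among the 124 rows outside MT whose mean FPKM was at least that of the lowest protein row (753), 119 could be compared, and their median change at E8 against E3 was −0.02, with 68 below 0 (51.3% of all genes), 8 lower by at least 0.5 (15.1%) and 5 higher (16.8%).

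**Figure D3:**
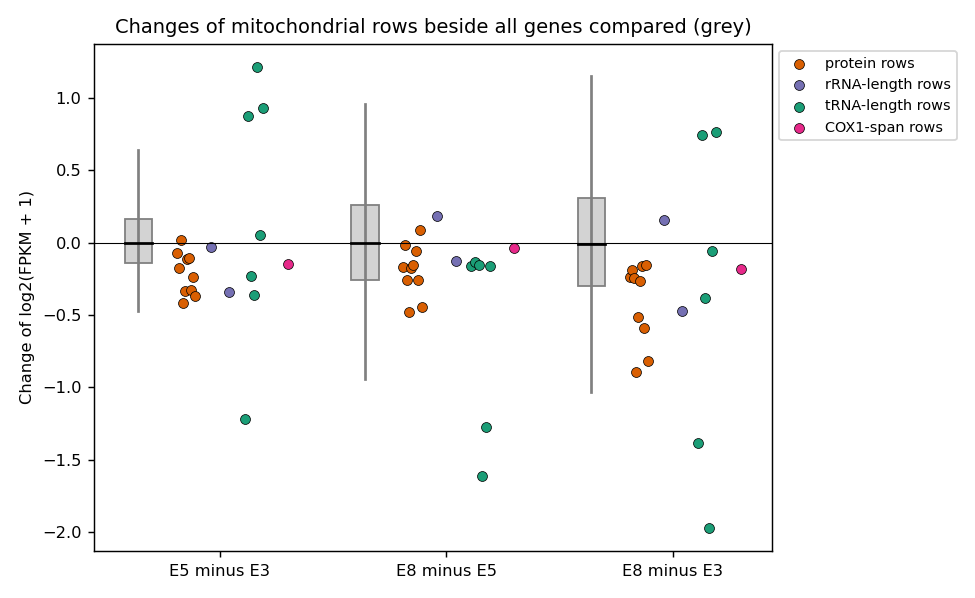
Changes of log2(FPKM + 1) of each mitochondrial row that could be compared, by class, beside all genes compared in grey (box from the 25th to the 75th percentile, black line at the median, whiskers from the 5th to the 95th). At E8 minus E3 the 10 protein rows lie between −0.90 and −0.15, and the tRNA-length rows spread from −1.97 to 0.76.

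Nuclear genes for subunits of the same complexes had median changes between −0.07 and 0.12 at E8 against E3. The negative one, of complex III, turned to 0.0196 and 0.0946 under 2 other scalings, where the medians of all genes were 0.069 and −0.0185. Of 37 nuclear complex I subunits 29 were found, with a median change of 0.12 at E8 against E3. Of these, 18 were above 0 (7031 of 14451 genes compared) and 2 were higher by at least 0.5 (16.8% of all genes). The 6 mitochondrial complex I rows had a median of −0.38 with all below 0. NDUFB2, an accessory subunit, had 123 FPKM at E3, 188 at E5 and 220.1 at E8 (0.83), the largest change among the nuclear subunits of complex I, followed by NDUFA2 (0.53) and NDUFA1 (0.49). Medians were −0.07 for complex III (8 compared of 9 listed nuclear subunits), 0.04 for complex IV (8 of 12) and 0.06 for complex V (7 of 17). Summed FPKM at E3 and E8 was 3588 and 3945 for nuclear subunits of complex I and 2190 and 2131 for complex III. It was 5104 and 5724 for complex IV, and 3506 and 3057 for complex V, lower at E8 although the median was above 0. At E5 against E3 the nuclear medians were above 0, at 0.141, 0.053, 0.045 and 0.085 for complexes I, III, IV and V. At E8 against E5 they were below 0 (−0.052, −0.080, −0.0008 and −0.038), as was that of the mitochondrial protein rows (−0.17). The complex IV genes were evenly split in this comparison, with 4 above 0 and 4 below. Other scalings were run for the nuclear lists only at E8 against E3. In complex III, which hands electrons to cytochrome c, the largest changes were those of UQCRB and UQCRQ (both −0.15) and UQCRC1 (−0.11). COX6A1, a nuclear subunit of complex IV, had 482, 597 and 710.5 FPKM (0.56), beside COX5A (−0.43) and COX6C (0.40). ATP5A1, the alpha subunit of the ATP synthase, had 1725, 1768 and 1365 FPKM (−0.34), beside ATP5G3 (−0.45) and ATP5J (0.21). SDHA of complex II, which has no mitochondrially encoded subunit, had 57.7, 64.2 and 64.05 FPKM. No nuclear subunit of complexes I to V passed 1 in any comparison, and the difference between nuclear and mitochondrial subunits was not tested.

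Of 11 compared nuclear genes that copy and transcribe mitochondrial DNA, 6 were below 0 at E8 against E3 (51.3% of all genes), with a median of −0.12. Scaled to the total of the other rows, this median was −0.0335, while that of all genes moved from −0.01 to 0.069. By at least 0.5, 1 was lower (15.1% of all genes), so neither share sets this list apart from the rest of the table. TFAM, which packages mitochondrial DNA and starts its transcription, had 137 FPKM at E3, 135 at E5 and 123 at E8 (−0.15). POLRMT, the mitochondrial RNA polymerase, was listed near the lowest level used, at 0.849, 1.10 and 0.923 FPKM. SSBP1, which binds single-stranded mitochondrial DNA, had 168, 148 and 108 FPKM (−0.63). POLG, the DNA polymerase that copies mitochondrial DNA (0.39), and PRIMPOL, a primase (0.31), stood above 0.

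Of 21 compared genes for processing and stability of mitochondrial RNA, 20 were below 0 at E8 against E3 (median −0.23), where 51.3% of all genes were. Some were barely below it, such as TRMT5 and FASTKD2 (both −0.002), and the count was not repeated under other scalings. By at least 0.5, 3 were lower, a share near the 15.1% of all genes. LRPPRC, which keeps mitochondrial mRNAs stable, had 123 FPKM at E3, 109 at E5 and 90.6 at E8 (−0.44). GRSF1, an RNA-binding protein of mitochondrial RNA granules, had 81.2, 71.0 and 44.9 FPKM (−0.84), and ELAC2, which cuts the 3′ ends of tRNAs out of the precursor, had 33.2, 28.9 and 22.2 FPKM (−0.56). NSUN3, which modifies a mitochondrial tRNA, was the one gene of the list past 1, with 19.8, 15.6 and 7.41 FPKM (−1.31).

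**Figure D4:**
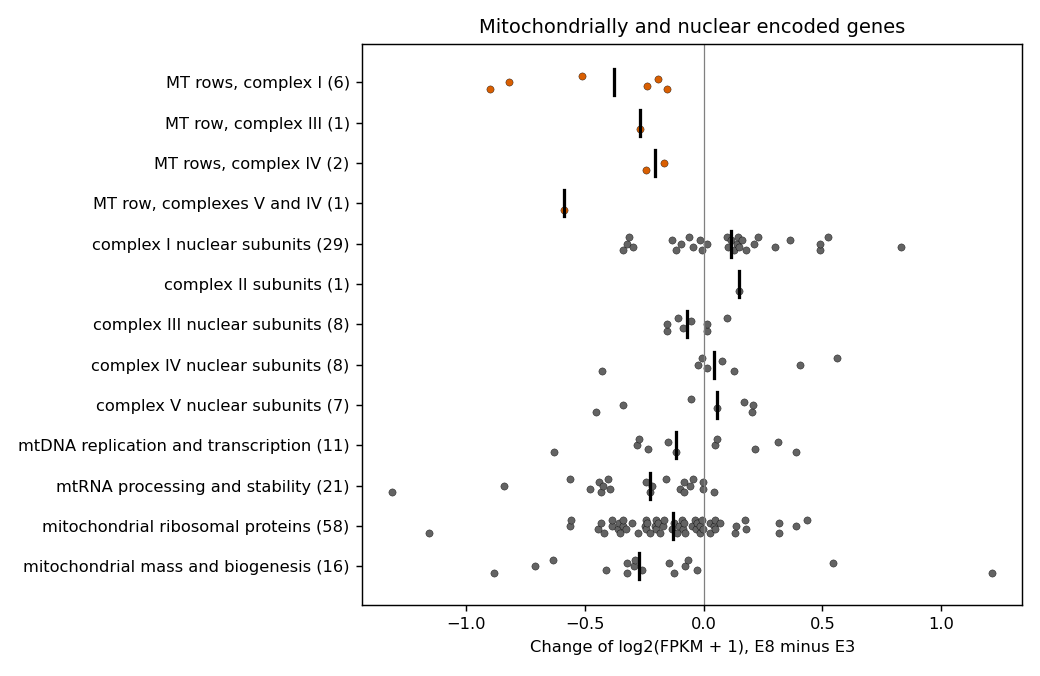
Changes of log2(FPKM + 1) at E8 minus E3 for mitochondrial protein rows by complex (orange) and for nuclear genes by list (grey), 1 point per gene or row, with the number compared in brackets and the median as a black bar. The complex I rows of MT have a median of −0.38, and the nuclear complex I subunits one of 0.12.

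The libraries carried the markers of retina, and markers of neighbouring tissues varied with stage. The 6 retina markers reported here were above 20 FPKM at each stage, among them SOX2 (69.5, 101 and 136) and PAX6 (301, 253 and 252). They also differed between stages, with 4 higher and 2 lower at E8 than at E3. ATOH7 had 22.4, 117 and 555 FPKM, and LHX2 had 88.2, 57.8 and 48.2. The 8 pigment epithelium markers summed to 38.0 FPKM at E3, 221 at E5 and 9.44 at E8, with PMEL at 0 throughout. The sums were 591, 657 and 3.40 for 5 of 6 lens markers, 503, 1209 and 75.5 for 4 of 8 erythroid markers, and 117, 180 and 6.66 for 5 of 7 mesenchyme markers. The lens sum was mostly ASL1 (582, 625 and 2.33 FPKM), and CRYBB1 and CRYBA4 were below 1 FPKM at each stage. All 4 of these tissue sums were highest at E5, where the mitochondrial sum lay between its E3 and E8 values. All 4 were also lower at E8 than at E3, as the mitochondrial sum was. Tissue content and stage cannot be told apart here, and the part of these tissues in the mitochondrial levels was not tested. Markers of mitochondria-rich heart and skeletal muscle summed to 0.924, 0.748 and 1.55 FPKM, with MYL2 at 0 at E3 and E5. The 3 matched endothelial markers summed to 30.04, 36.8 and 33.8 FPKM, but went different ways. CDH5 had 5.04, 8.01 and 0.127 FPKM, while KDR (12.4 at E3 and 18.3 at E8) and PECAM1 (12.6 and 15.3) were higher at E8 than at E3. The 3 leukocyte markers summed to 1.35, 1.97 and 1.24 FPKM.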

How the data were processed

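The chicken table was deposited as FPKM, computed by the authors, with 1 pooled column per stage, per the file headers. TopHat2, Bowtie2, Cufflinks and Cuffdiff were used, per the submitters' processing notes; the sources used here give no versions, genome build, annotation or strand setting. Per the labels' protocols, RNA was extracted with Trizol and 1 µg went into a TruSeq stranded mRNA kit. Read totals are unknown, so no interval or floor was computed. Starts, counted from 0 in the table, were converted to count from 1.

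Rows on MT were summed and grouped, and changes of log2(FPKM + 1) were computed with Python 3.11.15 and pandas 2.3.3 on the whole table. Functions were tested on simulated data. With 1 value per stage, limma and leaving out replicates could not be used. Of 228 symbols in the nuclear lists 170 were matched to a row listed once, 18 of them through older symbols added after the data were seen. Named were all protein and rRNA-length rows, the highest tRNA-length rows, those past a change of 1, and from each nuclear list those past 1 or largest, with 4 fixed genes. Members and lists were chosen with earlier results of these data known. Alternatives were other pseudocounts (0.1 and 5), filters (none and 5), scalings, classes and symbols. One retina marker is not reported here.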

Additional observations from a re-analysis of the deposited data

How the results depend on the processing

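No value per library was given, so no replicate could be left out, and depth is unknown. No paired analysis was possible because each stage has 1 pooled column. Without replicates, a value was called moved when it differed by over 1.5 times. For the mitochondrial share of summed FPKM the alternatives only left out rows, and no scaling was applied to it. Within each stage, this share did not move by over 1.5 times. It lay between 10.3% and 12.7% at E3, 9.18% and 11.6% at E5, and 8.32% and 10.8% at E8. Without the COX1-span row the share was 10.9%, 9.80% and 8.90%. Its difference between E3 and E8 (12.7% and 10.7%) is itself within that limit. The ratio of mitochondrial sums at E8 over E3 was 0.775 as deposited and 0.781 with median-ratio scaling. It was 0.824 with scaling to the total of the other rows and 0.947 with quantile normalisation, where most of the fall was gone. The limit is wide for a ratio near 1, so it cannot show that the fall kept its size. The cause of the movements below was not tested, except where the alternative itself removes or divides rows. Quantile normalisation gives the 3 highest rows of the table, all mitochondrial and in the same order at each stage, no change by construction.

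The median change of mitochondrial rows stayed below 0 in all comparisons. With quantile normalisation it was −0.0345 at E5 against E3, −0.0694 at E8 against E5 and −0.10 at E8 against E3, and with scaling to the total of the other rows it was −0.15 at E8 against E3. That scaling moved the median of all genes by under 0.1, from −0.01 to 0.069 at E8 against E3. It multiplies every row of a stage by the same factor, so all changes in a comparison shift by nearly the same amount. Counts of rows past the fold, 2 in each comparison, were 0 without tRNA-length rows. At a threshold of 0.5 they were 4 of 20 at E5 against E3 (1 lower and 3 higher) and 8 of 19 at E8 against E3 (6 lower and 2 higher). Over all 14490 genes compared at E5 against E3, 651 were lower by this size and 1102 higher. At E8 against E3, 15.1% of all genes were lower and 16.8% higher. Between E5 and E3 the 976-base rRNA-length row (ENSGALG00000018386) turned to 0.10 with quantile normalisation and 0.0170 with scaling to the other rows. Between E8 and E5 the 1621-base row (ENSGALG00000018384) turned to 0.0061 with quantile normalisation, and the COX1-span row (ENSGALG00000018372) and ND6 turned to 0.0026 and 0.0208 with scaling to the other rows.

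Counting the COX1-span row with the tRNA-length rows put their share at 18.2%, 19.7% and 20.9% at E3, E5 and E8. With the mean per row, complex I held 5.84%, 5.64% and 5.96% of the protein sum, and at E8 complex III held 10.6% and the mixed row 60.7%. With the mixed row left out, complex I held 42.7%, 38.7% and 38.9%, complex III 11.3%, 11.6% and 11.6%, and complex IV 46.0%, 49.7% and 49.5%. Divided by the number of names, the mixed row held 22.6%, 20.5% and 19.5%, and at E3 complex III held 9.53% and complex IV 38.9%. Without the gga-mir-3527 row complex IV held 15.4%, 17.2% and 18.8%.

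For the nuclear lists at E8 against E3, scaling to the total of the other rows gave medians of 0.20 for complex I, 0.23 for complex II, 0.0196 for complex III (the sign turned), 0.13 for complex IV and 0.15 for complex V, and of −0.0335 for replication and transcription, −0.14 for RNA processing and −0.0420 for ribosomal proteins. The median of all genes with this scaling was 0.069. Quantile normalisation gave 0.18 for complex I, 0.0946 for complex III (the sign turned), 0.16 for complex IV, 0.15 for complex V, −0.0667 for ribosomal proteins and −0.12 for mass and biogenesis. Mass and biogenesis stood at −0.17 with a pseudocount of 5, and RNA processing at −0.39 without older symbols.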

Other observations

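Nuclear genes for the mitochondrial ribosome, which reads the mitochondrial mRNAs, had small differences between stages. Of 83 symbols 62 were matched and 58 compared, and their summed FPKM was 5145 at E3, 5159.8 at E5 and 4832 at E8. The median change at E8 against E3 was −0.13, with 44 of 58 below 0 (51.3% of all genes) and 3 lower by at least 0.5 (15.1% of all genes). MRPS27 was the one member past 1, with 57.3, 45.55 and 25.2 FPKM (−1.16), and MRPS6 and MRPL3 both stood at −0.56.

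Among 16 matched genes of mitochondrial mass and biogenesis, 14 were below 0 at E8 against E3 (51.3% of all genes), with a median of −0.27. HSPA9, the mitochondrial matrix chaperone of the HSP70 family, had 249 FPKM at E3, 227 at E5 and 152 at E8 (−0.71), and PPRC1, a coactivator related to PGC-1, had 12.6, 12.1 and 6.40 FPKM (−0.88). ESRRG, a nuclear receptor of oxidative tissues, went against the list, with 4.79, 5.29 and 12.4 FPKM (1.21). So did VDAC1, a channel of the outer membrane, at the low level of 3.96, 4.41 and 6.23 FPKM (0.54). VDAC2 (419, 396 and 342 FPKM, −0.29) and VDAC3 (213, 193 and 192 FPKM, −0.15) stood far higher and were lower at E8 than at E3. PPARGC1A, which encodes PGC-1 alpha, was low throughout, at 0.718, 1.46 and 0.408 FPKM.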
